A study of Mus musculus with 45 samples.

Results

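The movement of the RNA polymerase II (RNAPII) wave-front between 5 and 15 min after release from transcriptional block was followed in WT/WT mouse embryonic stem cells (ESCs). The transcripts described are the 26957, of 122968 in the deposited tables, that were at least 20 kb long and had a called front in all 6 samples compared, 3 harvested at 5 min and 3 at 15 min. They belonged to 8813 annotated genes and began at 24097 start sites, and 25570 of them were transcripts of protein-coding genes, so many members shared a gene and are not independent of each other. The series measured nascent RNA by 4sU-DRB-seq in 3 genotypes, each with 3 biological replicates per time. In WT/WT cells both alleles of Polr2a, which encodes the largest subunit of RNAPII, were wild type, and these were the parental ESCs. WT/slow cells carried the R749H change on 1 allele and slow/slow cells on both, introduced into the endogenous gene by homologous recombination. Cells of every group were kept on gelatin in 2i medium and were treated with DRB for 4 h, washed, and given the uridine analogue 4sU before harvest. The value deposited for each transcript is the distance from its start site to the front, in steps of 100 bases, which is a position and not an expression level. The files therefore allow a cell type to be checked only by which genes had a front: of 12 markers of naive ESCs, 8 had a front in at least 1 of the 6 samples and 5 (Esrrb, Klf5, Tbx3, Tfcp2l1 and Zfp42) in all 6. The counts were 5 and 3 of 7 for neural, 4 and 3 of 5 for trophoblast, 3 and 3 of 5 for endoderm, 2 and 1 of 4 for mesoderm and 2 and 0 of 5 for feeder fibroblast markers. Having a front therefore did not set the ESC markers apart from those of other lineages, and the cell type rests on the labels.

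DRB inhibits the kinase of P-TEFb and so holds RNAPII near the promoter. When the drug is washed out, polymerases are released together and a wave of new transcription runs into the gene, its leading edge marking how far the first polymerases have travelled. Elongation rate is known to differ between genes and to influence co-transcriptional splicing. A rate was taken here as the mean front of the 3 samples at 15 min minus the mean front of the 3 samples at 5 min, divided by the 10 min between them. A positive rate is a front that lay farther from the start site at 15 min, and a negative rate is a front that lay nearer to it.

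Over all members the typical front lay nearer to the start site at 15 min than at 5 min. The median front was at 7.5, 15.3 and 9.0 kb in the 3 samples at 5 min and at 3.2, 2.5 and 4.0 kb in the 3 samples at 15 min. All 3 medians at 5 min were above all 3 at 15 min, and replicate 2 at 5 min stood apart from the other two. The difference of the mean medians was -7.37 kb (10.6 ± 4.14 kb against 3.23 ± 0.751 kb, SD, n = 3 each, exact two-sided permutation test p = 0.1, the smallest value that 3 against 3 allows). Without replicate 2 at 5 min it was -5.02 kb, and among members of at least 60 kb it was -1.53 kb, with overlapping groups (exact permutation p = 0.7). With the mean over members in place of the median, the difference was -0.0599 kb (exact permutation p = 0.9), so no difference in the mean front was shown. A test of 3 against 3 cannot establish that there was none.

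A single value accounted for much of this. Of the 161742 boundaries of the members, 54691 (33.8%) were exactly 2.5 kb, while the next most frequent value, 2.6 kb, held 0.643%. Fronts below 2.5 kb were called too, down to 0.2 kb, in 0.742 to 1.18% of members per sample. The share at 2.5 kb was 23.7, 17.6 and 20.1% at 5 min and 45.1, 56.3 and 40.1% at 15 min. It was higher in every 15-min sample than in any 5-min sample, by 26.6 percentage points on average (47.1 ± 8.3% against 20.5 ± 3.06%, SD, n = 3 each, exact two-sided permutation test p = 0.1, the smallest possible), and by 10.7 points among members of at least 60 kb. What the wave-calling software assigns this value to is not given in the sources used here, so boundaries equal to 2.5 kb were counted apart.

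**Figure D1:**
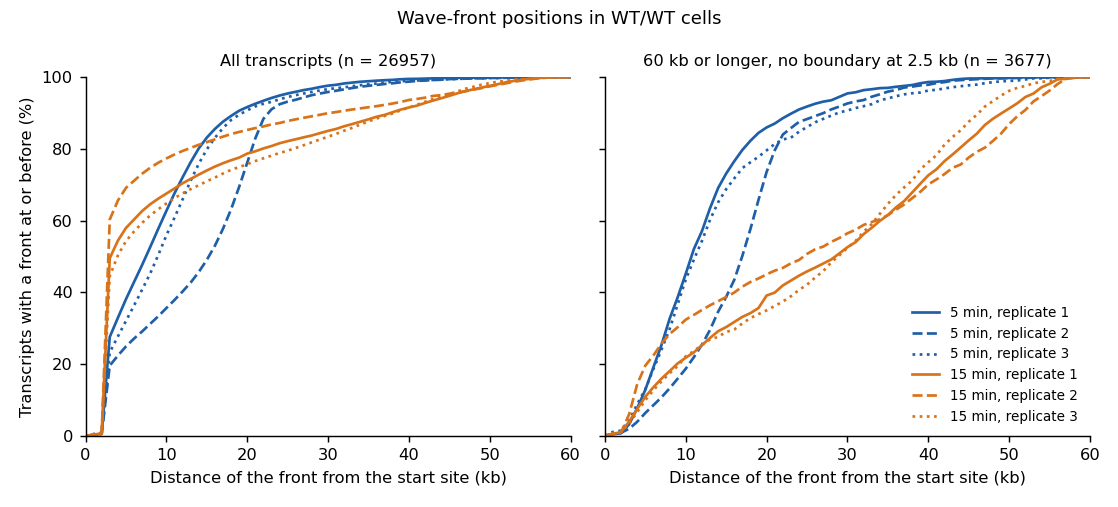
Cumulative share of transcripts (y axis, %) whose front lay at or before a given distance from the start site (x axis, kb), 1 line per WT/WT sample (blue, 5 min; orange, 15 min), for all 26957 transcripts (left) and for the 3677 of at least 60 kb with no boundary at 2.5 kb (right). On the left the 15-min lines step up at 2.5 kb; on the right they lie to the right of the 5-min lines over most of the range.

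The share at 2.5 kb varied with transcript length far more at 15 min than at 5 min. Among members of 20 to 25 kb it was held by 61.8, 66.6 and 56.6% in the 3 samples at 15 min, and among members of 60 to 65 kb by 30.8, 47.5 and 22.2%. At 5 min the shares were 27.1, 22.4 and 20.3% in the shorter class and 21, 14.6 and 18.2% in the longer one. The decline at 15 min was therefore seen in all 3 samples and took place between about 35 and 65 kb, with little change beyond. No boundary was longer than its transcript, and the longest was 59.1 kb.

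**Figure D2:**
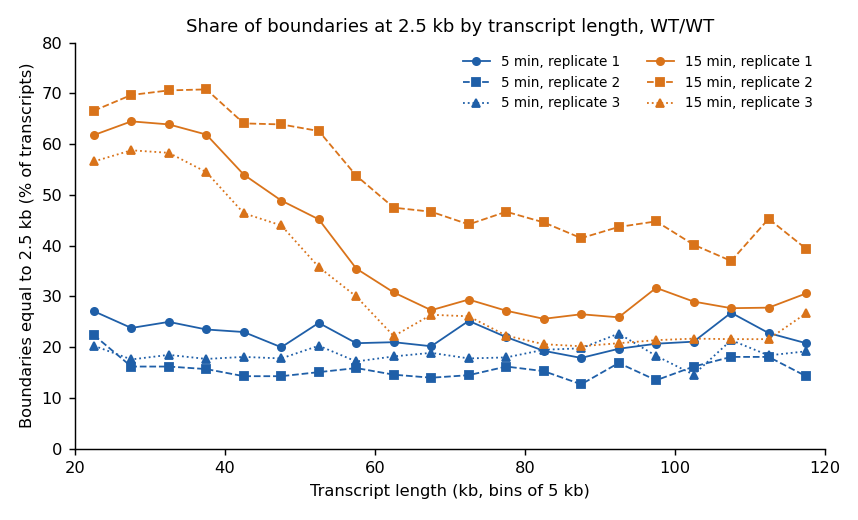
Share of boundaries equal to 2.5 kb (y axis, % of transcripts) against transcript length (x axis, kb, bins of 5 kb from 20 to 120 kb), 1 line per WT/WT sample. The 15-min lines (orange) start between 56.6 and 66.6% at 20 to 25 kb and fall to between 22.2 and 47.5% at 60 to 65 kb, while the 5-min lines (blue) are near level.

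By their 2.5-kb boundaries the members fell into a few main groups. In 5682 members (21.1%) no boundary was at 2.5 kb, and in 858 (3.18%) all 6 were. In 3569 members (13.2%) none was at 2.5 kb at 5 min and all 3 were at 15 min, with a median rate of -1143 bases per min. The opposite pattern, all 3 at 2.5 kb at 5 min and none at 15 min, was held by 159 members (0.59%), with a median rate of 940 bases per min.

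Counted over all members, 11408 fronts (42.3%) lay farther at 15 min, 14605 (54.2%) nearer and 944 (3.5%) at the same mean distance. All 3 fronts at 15 min were beyond all 3 at 5 min in 1987 members (7.37%), against 5.84% of the 36423 transcripts of any length with 6 boundaries. All 3 were short of all 3 at 5 min in 5870 members (21.8%), against 18.5% of those transcripts. Of these 5870, 3553 had all 3 boundaries at 2.5 kb at 15 min and 327 had no boundary at 2.5 kb at either time. Both shares lay near those of all lengths, of which the members are the larger part.

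A moderated linear model (limma, Benjamini-Hochberg adjusted p below 0.05 over the 33192 transcripts of any length whose boundaries varied) called 677 members forward and 1384 backward of the 26080 members that entered it. Over all transcripts tested the model called 2.07% forward and 4.70% backward. The called members were split by length. Of the forward calls, 564 (83.3%) were at least 60 kb long. Of the backward calls, 1263 (91.3%) were 20 to 60 kb long, a class that made up 56.9% of members. Since no boundary exceeded its transcript, shorter members had less room for a forward call. What this added to the split was not tested. Of the backward calls, 957 (69.1%) had all 3 boundaries at 2.5 kb at 15 min and 49 had none at 2.5 kb. Of the forward calls, 533 had no boundary at 2.5 kb. These counts did not survive a model whose prior variance followed the mean boundary, which called 0 members in each direction (smallest limma adjusted p = 0.122, with 1501 forward and 4389 backward members at an unadjusted p below 0.05), so every adjusted p below the threshold given for a gene's WT/WT rate belongs to the first model. They also rested on single samples: leaving out replicate 1 at 15 min gave 256 forward and 137 backward calls, and the backward calls were 412 without replicate 2 at 15 min, 390 without replicate 3 at 15 min and 2859 without replicate 1 at 5 min.

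Where no boundary was at 2.5 kb, most fronts lay farther at 15 min. Of the 5682 members of this kind, which came from 2608 genes, 4114 (72.4%) lay farther and 1541 (27.1%) nearer, with a median rate of 613 bases per min. Their median fronts were 10.1, 16.1 and 10.5 kb at 5 min and 19.1, 14.6 and 20.3 kb at 15 min. Replicate 2 at 15 min lay below replicate 2 at 5 min, so the groups overlapped and the difference of 5.77 kb was not beyond the spread between samples (exact two-sided permutation test p = 0.2, n = 3 each). With 1 transcript per gene the difference was 2.43 kb (exact permutation p = 0.4). The 3 fronts at 15 min were all beyond the 3 at 5 min in 1331 members (23.4%, against 21.5% of transcripts of any length with no such boundary) and all short of them in 327 (5.76%, against 6.41%).

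Length divided these members again, with the same limit on the room of shorter ones. Those of 20 to 30 kb had a median rate of -170 bases per min (n = 668) and those of 30 to 60 kb of 130 bases per min (n = 1337). From 60 kb upward the median rate differed little with length, at 1123 bases per min for 60 to 100 kb (n = 1510), 1160 for 100 to 200 kb (n = 1296) and 1050 for 200 kb or more (n = 871). Members of at least 60 kb without a 2.5-kb boundary, 3677 transcripts of 1543 genes, are therefore the set used to describe rates. They were chosen by their fronts from 11610 members of at least 60 kb. The median rate of those 11610, with 2.5-kb boundaries included, was 347 bases per min, so rates in the chosen set do not stand for all long transcripts.

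In these 3677 members the median front was at 10.7, 17.0 and 11.3 kb at 5 min and at 28.6, 25 and 28.8 kb at 15 min. Every 15-min sample lay beyond every 5-min sample, and the difference was 14.5 kb (27.5 ± 2.14 kb against 13 ± 3.48 kb, SD, n = 3 each, exact two-sided permutation test p = 0.1, the smallest possible). The median rate was 1117 bases per min, with quartiles of 310 and 2030, and ranged from 990 without replicate 1 at 5 min to 1242 without replicate 2 at 5 min. A rate above 3 kb per min was found in 279 members (7.59%), of 1 to 3 kb per min in 1681 (45.7%), of 0 to 1 kb per min in 1166 (31.7%) and below 0 in 551 (15%). The spread between replicates of a single transcript was wide beside this range, since the median SD of the front was 5.66 kb at 5 min and 9.13 kb at 15 min, and the median standard error (SE) of a rate was 669 bases per min. Ranks of the front across transcripts correlated between replicates with Spearman coefficients of 0.243 to 0.258 at 5 min and 0.305 to 0.437 at 15 min, given as a description over 3677 transcripts that share genes.

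**Figure D3:**
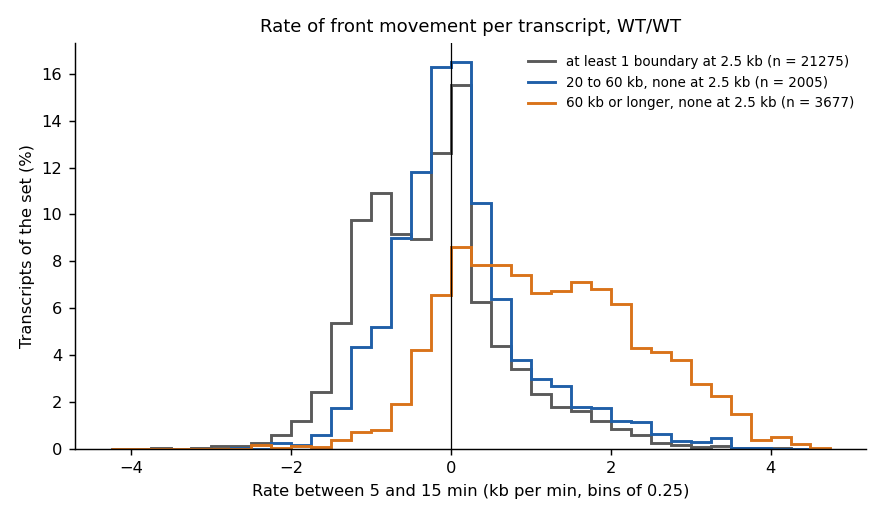
Distribution of the rate per transcript (x axis, kb per min, bins of 0.25; y axis, % of the transcripts of each set), from the means of 3 WT/WT samples at each time. Transcripts of at least 60 kb with no boundary at 2.5 kb (orange) lie mostly to the right of 0, those of 20 to 60 kb (blue) centre on 0, and those with at least 1 boundary at 2.5 kb (grey) show a further peak near -1000 bases per min.

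Fitted to the transcripts of any length with no 2.5-kb boundary, the same model called 631 members forward and 44 backward of 5663 (10% and 0.763% of the 6295 transcripts tested). Of the forward calls 564 were at least 60 kb long, and of the backward calls 40 were 20 to 60 kb long. With a prior variance that followed the mean boundary the calls were 461 forward and 48 backward. The forward count without 1 sample lay between 323, without replicate 1 at 5 min, and 762, without replicate 2 at 15 min, and was 413 without replicate 3 at 5 min. The backward count fell to between 10, without replicate 1 at 15 min, and 36, without replicate 3 at 5 min, and was 24 without replicate 1 at 5 min, 15 without replicate 2 at 5 min, 15 without replicate 2 at 15 min and 27 without replicate 3 at 15 min.

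The fastest named genes were selected for their rates, so their values are a description. The 7 given were taken from 145 genes of at least 60 kb whose longest member had no boundary at 2.5 kb, non-overlapping times and an adjusted p below 0.05. Sipa1l1, a GTPase-activating protein for Rap, had fronts at 5.9, 17.0 and 6.1 kb at 5 min and at 55.7, 55 and 57 kb at 15 min, a rate of 4623 ± 342 bases per min (SE; limma adjusted p = 0.0084). Sh3gl2, which encodes endophilin A1 of synaptic vesicle endocytosis, had fronts at 4.4, 3.3 and 6.0 kb and then at 51.4, 46.5 and 49.5 kb, a rate of 4457 ± 168 bases per min. Dst, the cytoskeletal linker dystonin, had fronts at 7.6, 3.7 and 10.6 kb and then at 41.1, 56.6 and 56.8 kb, a rate of 4420 ± 505 bases per min. In each of these genes the fronts of the 2 times were far apart. Adam22, a membrane protein that binds LGI1, had a rate of 4233 bases per min. Sobp, Pdlim5 (a cytoskeletal PDZ and LIM protein) and Bbx (an HMG-box protein) followed at 4080, 4050 and 4023. Their fronts at 15 min, between 41.1 and 57 kb over the 7 genes, approached the longest front in the files, and 2.29% of 15-min boundaries in the set of 3677 were at 55 kb or more.

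The slowest 8 were taken from 354 genes with the same length and separation of times, without the condition on the adjusted p, and none of them passed the test, which does not show that their fronts stood still. Kif26b, a kinesin, had fronts at 5.3, 5.4 and 3.0 kb at 5 min and at 8.4, 8.3 and 7.6 kb at 15 min, a rate of 353 ± 112 bases per min (SE; limma adjusted p = 0.166). Vwa3a had fronts at 9.9, 9.0 and 10.7 kb and then at 14.5, 15.1 and 11.7 kb, a rate of 390 ± 134. Cntln, which encodes the centrosomal protein centlein, had fronts at 11.3, 11.2 and 14.9 kb and then at 15.4, 16.6 and 19.1 kb, a rate of 457 ± 169. The times did not overlap in these genes, yet the advance was under 5 kb in 10 min. Rtn1 (reticulon 1 of the endoplasmic reticulum) and Egfem1 both had a rate of 413, Dnah9 (an axonemal dynein heavy chain) of 617, Abca4 (a photoreceptor lipid transporter) of 753 and Nrp2 (a semaphorin and VEGF receptor) of 790.

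Sh3gl2 and Kif26b had the same mean front at 5 min and were far apart at 15 min. Their mean front at 5 min was 4.57 ± 1.36 kb in both (SD, n = 3), and at 15 min it was 49.1 ± 2.47 kb in Sh3gl2 and 8.1 ± 0.436 kb in Kif26b. The Sh3gl2 transcript runs from chr4:85205469 to 85639195 on the plus strand (GRCm38, 433.7 kb, 8 exons) and the Kif26b transcript from chr1:178529125 to 178939200 on the plus strand (410.1 kb, 15 exons). Both fronts of Sh3gl2 lay in intron 1 and both fronts of Kif26b in intron 2. The stretches of 90 bases around these mean fronts are printed from GRCm38 to show where each wave stood, the 10 bases in capitals centring on the front, and they fall at chr4:85209991-85210080 and chr4:85254557-85254646 for Sh3gl2 and at chr1:178533647-178533736 and chr1:178537180-178537269 for Kif26b. The GC content of the 4 stretches was 50.0, 60, 56.7 and 48.9% in that order.
Sh3gl2, 5 min: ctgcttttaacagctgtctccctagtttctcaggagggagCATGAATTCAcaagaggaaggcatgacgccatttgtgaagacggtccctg
Sh3gl2, 15 min: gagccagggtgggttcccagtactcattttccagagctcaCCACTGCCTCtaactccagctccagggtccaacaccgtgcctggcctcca
Kif26b, 5 min: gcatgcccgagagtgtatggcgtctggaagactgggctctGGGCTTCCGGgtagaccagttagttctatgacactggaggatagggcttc
Kif26b, 15 min: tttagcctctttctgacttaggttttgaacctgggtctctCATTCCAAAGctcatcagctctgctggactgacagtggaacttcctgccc
The capitals mark a mean of 3 called positions whose SD was at least 0.436 kb, so no base in them is the site of a polymerase.

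Backward moves without any 2.5-kb boundary were fewer but could be large. The 5 named were taken from 112 genes by the lowest rate, so their rates and p-values are a description. Hook1, an adaptor that links cargo to microtubules, had fronts at 26.7, 24.4 and 22.7 kb at 5 min and at 3.8, 3.7 and 3.9 kb at 15 min, a rate of -2080 ± 134 bases per min (SE; limma adjusted p = 0.00784). At 30 min its fronts were at 4.2, 3.6 and 4.1 kb, close to those at 15 min. Lurap1l, with fronts at 34.2, 22.3 and 20.7 kb and then at 3.8, 3.4 and 6.7 kb, also passed the test (-2110 ± 401 bases per min, limma adjusted p = 0.0493). Pip5k1b (a phosphatidylinositol phosphate kinase), Clic6 (a chloride intracellular channel protein) and Aldh1a3 (a retinaldehyde dehydrogenase) had rates of -2443, -2100 and -1657 and limma adjusted p = 0.322, 0.117 and 0.159, and the 5-min fronts of Pip5k1b were far apart, at 13.1, 19.9 and 52.6 kb. Of the 5 genes, 4 were shorter than 60 kb.

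Among genes whose 3 boundaries were all at 2.5 kb at 15 min and none at 5 min, 1206 in number, the lowest rates came from 1 far and variable 5-min group. Ubr4, an E3 ubiquitin ligase, had 5-min fronts at 13.1, 48.0 and 44.6 kb and a rate of -3273 ± 996 bases per min (SE; limma adjusted p = 0.15). Acss1 (mitochondrial acetyl-CoA synthetase) had 44.7, 43.8 and 12.9 kb and -3130 ± 938, and Gnb1 (a G protein beta subunit) 10.2, 51.1 and 39.9 kb and -3123 ± 1093. None of the 3 passed the test.

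**Figure D4:**
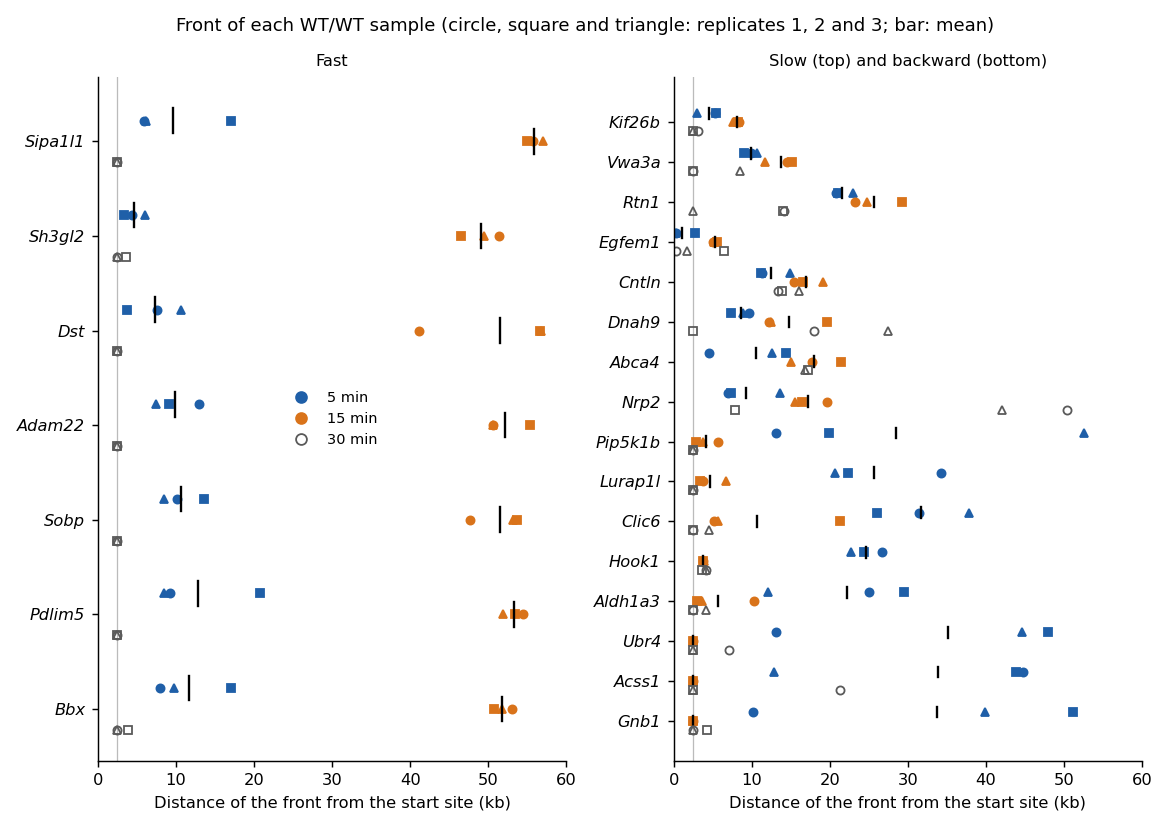
Fronts of the named fast genes (left) and of the slow and backward genes (right), as distance from the start site (x axis, kb), 1 symbol per WT/WT sample at 5 min (blue), 15 min (orange) and 30 min (open grey), with black bars for the means of 3 at 5 and 15 min and a grey line at 2.5 kb. The 15-min fronts of the fast genes lie between 41.1 and 57 kb and most of their 30-min fronts on the 2.5-kb line.

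The 30-min samples, which did not enter the rates, were read for the same genes. One transcript per gene of the set of at least 60 kb without a 2.5-kb boundary (the longest, 1556 genes or unannotated transcripts) was placed in a slow (-2443 to 427 bases per min), middle or fast (1620 to 4623 bases per min) tertile of near-equal size. The slow tertile had a median rate of -3.33 bases per min, so its name covers fronts that lay nearer at 15 min as well as small advances. At 30 min 33.1, 43.4 and 44.7% of the slow tertile were at 2.5 kb in the 3 samples, against 66.3, 76.7 and 84.4% of the fast tertile. The middle tertile lay between them in every sample, at 45.5, 61.4 and 65.4%. Of the 7 fast genes, 5 were at 2.5 kb in all 3 samples at 30 min, and Sh3gl2 and Bbx in 2 of 3. Of the 8 slow genes none was at 2.5 kb in all 3, and Cntln had fronts at 13.3, 13.9 and 16.0 kb at 30 min. Over all members of at least 60 kb the share at 2.5 kb was 59.4, 67.7 and 70.5% at 30 min, where it had been 28.6, 42.6 and 25.1% at 15 min.

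The order of the tertiles was also seen in the other genotypes, whose samples did not set the rates either. Only genes with no 2.5-kb boundary in the other genotype were kept, and this choice fell unequally on the tertiles. For WT/slow it kept 226 of 519 slow-tertile and 288 of 519 fast-tertile genes, and for slow/slow 256 and 413. In WT/slow cells, for the 769 genes with no 2.5-kb boundary there, the median front at 15 min was 17.2, 19.0 and 20.8 kb in the slow tertile and 32.0, 36.6 and 36.2 kb in the fast tertile. In slow/slow cells (980 genes) it was 25.9, 26.9 and 21.3 kb in the slow tertile and 30.8, 31.6 and 27.2 kb in the fast tertile. At 5 min the tertiles differed less, with medians of 10.6, 11.9 and 9.9 kb in the slow tertile and 11.4, 15 and 10.7 kb in the fast tertile of WT/slow, and of 10.8, 9.95 and 8.6 kb and 12.1, 10.5 and 9.2 kb in slow/slow. Across genes the WT/WT rate had a Spearman coefficient of 0.445 with the WT/slow rate and of 0.323 with the slow/slow rate, as a description over 769 and 980 genes that share chromosomal position and the wave caller.

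**Figure D5:**
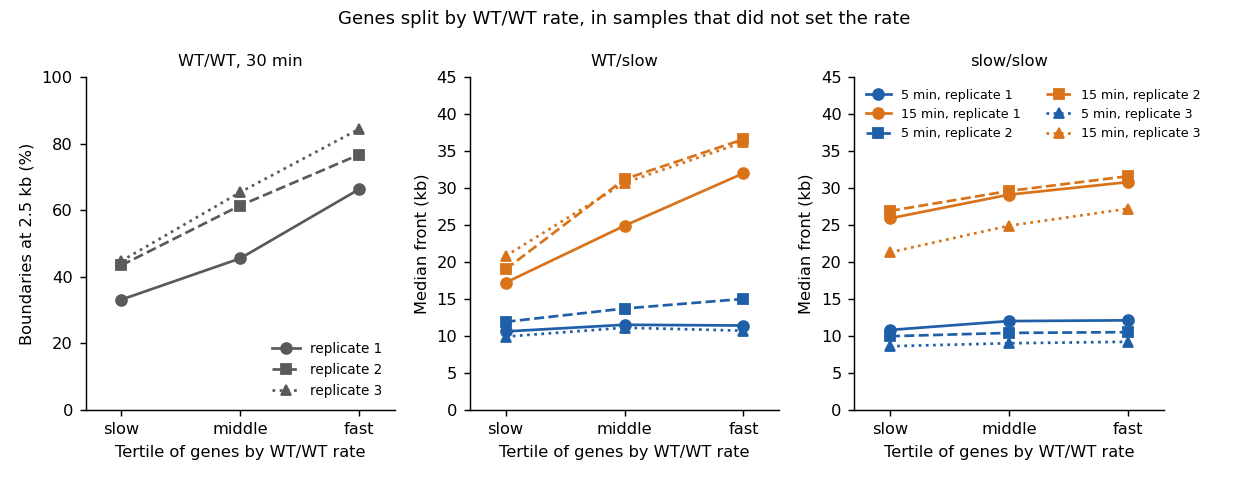
Genes of at least 60 kb split into tertiles by WT/WT rate (x axis), in samples that did not set the rate, 1 line per sample. The left panel shows the share of boundaries at 2.5 kb at 30 min in WT/WT (%), which rises from 33.1 to 44.7% in the slow tertile to 66.3 to 84.4% in the fast tertile; the other panels show the median front (kb) at 5 min (blue) and 15 min (orange) in WT/slow and slow/slow.

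Rates in the set of at least 60 kb showed little relation to the sequence and structural features examined, given as a description over genes that share the 6 samples. The median SE of a rate was 669 bases per min beside quartiles of 310 and 2030. Such noise lowers any coefficient, so values near 0 do not show that a feature is unrelated to the rate. Over 1387 genes with matching coordinates in the annotation, Spearman coefficients with the rate were -0.0113 for GC content and -0.0519 for repeat content from 5 to 35 kb after the start, 0.0282 for the number of exons there, -0.049 for the length of intron 1, 0.0416 for transcript length and -0.096 for the number of other protein-coding gene starts within 60 kb downstream. Genes in the lowest quartile of GC content (up to 40.1%) had a median rate of 1047 bases per min, and those in the highest (from 45.9%) of 925. Median rates per chromosome ran from 575 bases per min on chromosome 19 (40 genes) to 1410 on chromosome 15 (62 genes). Where a gene had members at more than 1 start site (778 genes), their rates spanned a median of 227 bases per min, and 156 genes spanned more than 1 kb per min. By gene type the median rate was 1157 bases per min for protein-coding genes (3536 transcripts), 283 for lincRNA genes (47) and 600 for antisense genes (30), the last 2 from few transcripts.

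Gene groups were described with 1 transcript per gene, beside the 8912 genes or unannotated transcripts with a member, of which 2.33% were called forward and 5.91% backward and 24.8% had all 3 boundaries at 2.5 kb at 15 min. The median length over these was 52.8 kb.

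For factors of RNAPII elongation and termination, 28 of 40 listed genes had a member, with a median rate of -820 bases per min and a median length of 46.9 kb. The model called 1 forward and 3 backward, and 12 had all 3 boundaries at 2.5 kb at 15 min. The 3 called backward were Supt6 and Supt5, which encode histone chaperone SPT6 and the DSIF subunit SPT5, and Nelfa, a subunit of the pausing factor NELF, named like the other called genes of the groups after their values were seen. Supt5 had fronts at 19.1, 19.3 and 14.2 kb and then at 2.5 kb in all 3 samples (-1503 ± 172 bases per min, SE; limma adjusted p = 0.0146). Aff1, a scaffold of the super elongation complex, was the only gene of the group without a 2.5-kb boundary, with fronts at 15.4, 15.9 and 19.4 kb and then at 25.4, 25.1 and 40.1 kb (1330 ± 464, limma adjusted p = 0.202). Its times did not overlap, but it did not pass the test.

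In the pluripotency and LIF pathway 20 of 32 genes had a member, with a median rate of -66.7 bases per min. All 3 boundaries at 15 min were at 2.5 kb in 6 of them. Limma called 0 forward (0 also at an unadjusted p below 0.05, beside 5.77% of all genes with a member) and 1 backward. The 1 was Tfcp2l1, a transcription factor of naive ESCs, whose fronts were at 14.8, 13.1 and 11.2 kb and then at 2.5 kb in all 3 samples (-1053 ± 126 bases per min, limma adjusted p = 0.0163). Lifr, the LIF receptor, had fronts at 7.7, 16.4 and 5.7 kb and then at 45.7, 14.2 and 44.5 kb. Rif1, a regulator of replication timing and DNA end protection, had fronts at 5.9, 16.8 and 13.4 kb and then at 6.2, 5.8 and 2.7 kb, and Nr5a2, a nuclear receptor, at 9.7, 10.1 and 6.2 kb and then at 13.2, 3.8 and 12.7 kb. In all 3 the times overlapped and the test was not passed. Esrrb, a nuclear receptor of naive ESCs, had fronts at 5.4, 5.1 and 2.5 kb and then at 4.0, 17.5 and 7.9 kb, also overlapping.

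Of 48 chromatin regulators 46 had a member, with a median rate of -168 bases per min, and 3 were called in each direction. Arid2, a subunit of the PBAF remodelling complex, moved from 18.1, 21.7 and 16.0 kb to 51.8, 54.9 and 45.3 kb (3207 ± 305 bases per min, limma adjusted p = 0.011). Ehmt1, a histone H3 lysine methyltransferase, and Ino80, the ATPase of the INO80 remodeller, were the others called forward, at 2243 and 2893 bases per min. Chd8, a chromodomain helicase, was called backward with fronts at 36.1, 30 and 28.7 kb and then at 2.5 kb in all 3 samples, as were the histone demethylase Kdm4a and the histone deacetylase Hdac2, at -2910, -1260 and -1330 bases per min. Kat6a, a histone acetyltransferase, had fronts at 3.5, 21.7 and 26.6 kb and then at 3.6, 3.0 and 2.7 kb, and Chd7 at 7.3, 18.1 and 8.4 kb and then at 51.1, 23.5 and 4.3 kb. Neither passed the test.

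Genes of cell adhesion, axon guidance and the synapse had the longest transcripts, with a median of 548 kb. Of 43 genes 42 had a member, with a median rate of 418 bases per min. Limma called 3 forward and 0 backward (0 backward also at an unadjusted p below 0.05, beside 17.8% of all genes with a member). All 3 boundaries at 15 min were at 2.5 kb in 4 of the group (9.52%). None had all 3 fronts at 15 min short of all 3 at 5 min, against 23.6% of all genes with a member and 3.85% (37 of 960) of those with a transcript of 200 kb or more, so the count lay near the share for long genes. Dscam, a cell adhesion molecule of the nervous system, moved from 7.8, 7.8 and 9.0 kb to 28.6, 36.7 and 31.1 kb (2393 ± 233 bases per min, limma adjusted p = 0.0111). The guidance receptors Robo1 and Plxna2 moved at 3797 and 2620 bases per min, each from 1 boundary at 2.5 kb at 5 min, while Plxna4 (4.5, 31.7 and 12 kb, then 37.2, 6.4 and 24.5 kb) and Sema5a (13.1, 7.0 and 10.9 kb, then 16.0, 3.4 and 7.9 kb) had overlapping times.

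Of 45 genes of DNA replication and repair 38 had a member, with a median rate of -108 bases per min, 1 called forward and 3 backward. Mcm9, a helicase of the MCM family, moved from 13.1, 6.5 and 7.7 kb to 30.3, 28.1 and 26.8 kb (1930 ± 220 bases per min, limma adjusted p = 0.0145). The nuclease Exo1, the ligase Lig3 and the nuclease scaffold Slx4 were called backward, at -1277, -1270 and -1083 bases per min, each with at least 1 boundary at 2.5 kb at 15 min. Prkdc, the catalytic subunit of DNA-dependent protein kinase, had fronts at 8.8, 16.6 and 9.0 kb and then at 11, 30.4 and 21.1 kb. Rfc1, the large subunit of the clamp loader, had fronts at 3.9, 18.5 and 16.9 kb and then at 46.0, 3.4 and 42.6 kb. Both had overlapping times.

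Of the genes the study followed singly, Polr2a had no transcript among the members and none of the other 4 passed the test. Ern1, the stress sensor IRE1, had fronts at 13.5, 15.6 and 12.6 kb and then at 59.1, 2.5 and 34.6 kb, a rate of 1817 ± 1468 bases per min (SE; limma adjusted p = 0.576). Itpr1, the inositol trisphosphate receptor, had fronts at 10.1, 30.6 and 38.2 kb and then at 49.2, 2.5 and 36.9 kb, and Notch1 at 17.8, 21.2 and 9.8 kb and then at 35.5, 2.5 and 32.7 kb. In these 3 genes replicate 2 at 15 min was at 2.5 kb and the other two were far out. Utrn, utrophin, had fronts at 6.3, 8.7 and 4.4 kb and then at 2.5, 2.5 and 6.3 kb.

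WT/WT progress was set against that of the mutant genotypes by the difference of the 2 differences, a comparison in which both mutants share the WT/WT samples. Against WT/slow, the change in WT/WT was higher (farther) in 19 members and lower (less far) in 97 of 24280 tested. Over all 28830 transcripts tested the shares were 0.0694% and 0.336%. A farther call need not be an advance: of the 19, 6 had all 3 WT/WT boundaries at 2.5 kb at 15 min and 10 had all 3 WT/slow boundaries there. Of the 97, 75 had at least 1 WT/WT boundary at 2.5 kb at 15 min. Against slow/slow, 117 were called farther in WT/WT and 1376 less far of 23278, beside 0.580% and 5.13% of 26881. Of the 1376, 1263 had at least 1 WT/WT boundary at 2.5 kb at 15 min, and the share at 2.5 kb at 15 min was 43.9, 55.4 and 39.0% in WT/WT and 35.3, 32.9 and 29.7% in slow/slow over the same 23476 members. Where none of the 12 boundaries was at 2.5 kb, the calls were 7 farther and 51 less far in WT/WT of 3041 members against slow/slow (beside 0.225% and 1.64% of 3110 transcripts), and 0 farther and 9 less far of 2512 against WT/slow (limma, beside 0.00% and 0.344% of 2617, with 52 farther and 158 less far at an unadjusted p below 0.05). Over the 980 genes of at least 60 kb with no 2.5-kb boundary in either genotype the median rate was 1337 bases per min in WT/WT and 1543 in slow/slow, a difference of -207 that was not tested. The WT/WT median fronts were at 11.1, 18.3 and 11.4 kb at 5 min and at 32.1, 28.6 and 32.4 kb at 15 min. Those of slow/slow were at 11.8, 10.3 and 9.0 kb and at 29.5, 30 and 25.5 kb. Replicate 2 of WT/WT at 5 min lay beyond all other 5-min samples, and without it the WT/WT median rate was 1477 and the difference -66.7 bases per min. On leaving out any 1 of the 12 samples the difference kept its sign, reaching -340 without replicate 3 of slow/slow at 15 min. Leaving out samples cannot address how the 980 genes were chosen, by having no 2.5-kb boundary. Among members of at least 60 kb, 28.4, 42.7 and 24.5% of WT/WT boundaries were at 2.5 kb at 15 min. For slow/slow the shares were 20.7, 20.8 and 19.6%, so the choice fell unequally on the genotypes. What this did to the difference was not tested. The paper reports the opposite order, a lower average rate with the homozygous mutation, for genes common to all genotypes. It also reports slower progress through Itpr1 and Utrn by qRT-PCR, and weaker transcription in uridine-incorporation and nuclear-extract assays. The difference given above comes from genes chosen by length and by having no 2.5-kb boundary. Whether that set matches the paper's genes was not examined, so the difference is not a test of the paper's result. The rates of 2 named genes are given as a description, since they were chosen for their WT/WT rates. Of the fast genes, Sh3gl2 was farther in WT/WT, with slow/slow fronts at 12.2, 8.0 and 8.5 kb at 5 min and at 36.5, 34.6 and 37.8 kb at 15 min (2673 bases per min). Hook1, chosen among the lowest WT/WT rates, was less far in WT/WT, its slow/slow fronts moving from 22.2, 21.8 and 22.3 kb to 34.2, 28.8 and 34.3 kb.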

How the data were processed

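Nascent RNA was sequenced from 3 biological replicates of each genotype at each time after DRB release. Per the labels and the study's methods, the authors aligned reads with Bowtie2 2.2.9 to mm10 (GRCm38), kept unique reads outside ribosomal RNA, binned them along transcripts and called the end of the wave against the average of the 0-min samples. The deposited values are 1 position per transcript and sample, in bases from the start site, with no count, ratio or score beside them. Read depth per boundary is therefore unknown, and no counting interval was given. Transcripts with no call in a sample were left out, and the 0-min samples were not analysed here. The mutant 30-min files were not used.

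Boundaries in kb were fitted with limma 3.58.1 in R 4.3.3 (lmFit, eBayes), over all transcripts with 6 boundaries that varied, with Benjamini-Hochberg adjustment at 0.05. The difference between genotypes was the interaction of genotype and time over 12 samples, fitted to each mutant apart. Sample medians and shares were compared by exact permutation with SciPy 1.17.1. The fits were tested on simulated data. Genes, exons and introns came from GENCODE M21, in which 26858 of the members were found and 25267 had the same start and end. Sequence came from GRCm38.p6.

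Named genes were represented by their longest member, without predicted-gene or Rik symbols: the 8 highest rates among genes with no 2.5-kb boundary, separated times, an adjusted p below 0.05 and at least 60 kb, the 8 lowest positive rates without the condition on p, the 5 lowest rates with separated times and no 2.5-kb boundary, the 3 lowest among genes with all 15-min boundaries at 2.5 kb and none at 5 min, and from each gene group the highest, median and lowest rate among genes with no 2.5-kb boundary, besides 5 genes the study followed. The members and lists were chosen with earlier results of these data known. Alternatives were the replicate number as a block, log2 boundaries, trended, robust and ordinary variance models, transcripts without 2.5-kb boundaries, 1 transcript per gene, at least 60 kb, 2 of 3 boundaries per time, and leaving out each sample. Some genes that the rules select are not reported here.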

Additional observations from a re-analysis of the deposited data

Results flagged for a closer look

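Progress between 5 and 15 min differed between genotypes in a number of transcripts by the interaction test (limma, adjusted p below 0.05). The change in WT/WT was higher in 19 members and lower in 97 against WT/slow, and higher in 117 and lower in 1376 against slow/slow. All 3 WT/WT boundaries at 15 min were at 2.5 kb in 606 of the 1376, and all 3 of slow/slow in 22.

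Of the named genes, Sipa1l1, Sh3gl2, Adam22 and Bbx, all among the fast genes, were farther in WT/WT than in slow/slow, by 2443, 1783, 2737 and 2523 bases per min (limma adjusted p = 0.00801, 0.00248, 0.0217 and 0.0391). They were chosen as fast in WT/WT, so a higher WT/WT rate in them follows in part from the choice, and the same holds for these p-values. Their slow/slow fronts at 15 min were 36.1, 29.6 and 34.7 kb for Sipa1l1, 36.5, 34.6 and 37.8 kb for Sh3gl2, 32.5, 30.7 and 19.8 kb for Adam22 and 34.8, 20.1 and 18.9 kb for Bbx.

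Hook1, Kat6a and Utrn were less far in WT/WT than in slow/slow, by -3113, -4043 and -2023 bases per min (limma adjusted p = 0.000203, 0.00742 and 0.00517). Hook1 was chosen among the lowest WT/WT rates and Kat6a as the lowest of its gene group, so a lower WT/WT rate in both follows in part from the choice, and their p-values are no independent support. In slow/slow the fronts of Kat6a went from 9.0, 11.6 and 7.7 kb to 38.7, 35.9 and 32.5 kb, and those of Utrn from 4.7, 2.5 and 2.5 kb to 25.9, 17.9 and 18.5 kb. The WT/WT fronts of Utrn at 15 min were 2.5, 2.5 and 6.3 kb, so its call rests in part on 2.5-kb boundaries in both genotypes. For Utrn the paper reports the opposite order by qRT-PCR after DRB release, a faster rate in WT than in slow/slow cells.

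Dst and Mcm9 differed from WT/slow (4420 and 1930 bases per min farther in WT/WT, limma adjusted p = 0.0174 and 0.0176). All 6 WT/slow boundaries of both genes were at 2.5 kb, so no movement could be read there.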

How the results depend on the processing

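The sign of the 3 sample-level differences was kept under every alternative run, but the first was near 0 with the mean over members. The median front changed by -7.37 kb, with -8.92 to -5.02 kb on leaving out 1 sample, and by -1.53 kb at 60 kb or more (exact permutation p = 0.7). When the mean over members replaced the median, the change was -0.0599 kb (exact permutation p = 0.9). Without 2.5-kb boundaries the median front changed by 5.77 kb (4.62 to 7.7 kb on leaving out 1 sample), by 2.43 kb with 1 transcript per gene and by 14.5 kb at 60 kb or more. The share at 2.5 kb changed by 26.6 percentage points (22.1 to 30.2 on leaving out 1 sample), and by 10.7 points at 60 kb or more. The median rate of WT/WT less that of slow/slow was -207 bases per min in the set of at least 60 kb. It was -340 to -66.7 on leaving out 1 sample, an alternative added after seeing the data. It was also over 1.5 times as large without replicate 1 of WT/WT at 5 min (-323) or at 15 min (-322). Each of these fits kept the choice of genes without a 2.5-kb boundary, whose effect on the difference was not tested.

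Counts of called members moved more. Against 677 forward and 1384 backward calls, the trended model gave 0 and 0, ordinary regression 385 and 726, 1 transcript per gene 225 and 589, at least 60 kb 420 and 34, log2 boundaries 646 and 3821, and transcripts without a 2.5-kb boundary 631 and 44. Leaving out 1 sample gave 256 to 981 forward and 137 to 2859 backward calls. Within the transcripts without a 2.5-kb boundary, settings added after seeing the data gave 461 and 48 (trended), 236 and 10 (1 transcript per gene), 323 to 762 forward and 10 to 36 backward (1 sample left out; 413 forward without replicate 3 at 5 min, 24 backward without replicate 1 at 5 min and 27 without replicate 3 at 15 min).

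Members farther and nearer made up 65.4 and 30.6% at 60 kb or more and 72.4 and 27.1% without a 2.5-kb boundary. Those with separated times made up 12.9% above and 6.2% below at 60 kb or more, and 23.4 and 5.76% without a 2.5-kb boundary. On leaving out 1 sample the share farther was 37.4 to 45.6%, nearer 50.0 to 58.5%, all above 8.58 to 15.4% and all below 23.4 to 29.4%. The last 2 shares can only rise from 7.37 and 21.8% when a sample is left out, since fewer values separate more readily.

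For the difference from WT/slow, transcripts without a 2.5-kb boundary gave 0 farther and 9 less far in WT/WT, and leaving out 1 sample 18 to 54 and 48 to 135. For slow/slow, they gave 7 and 51, log2 boundaries 48 farther, and leaving out 1 sample 94 to 251 and 1181 to 2162.

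The main fits did not pair samples by replicate number, since no source says that equal numbers were processed together. Deviations of same-numbered samples at 5 and 15 min had correlations over members of 0.0498, 0.0011 and 0.0141. These leave out any shift common to a whole sample, so they cannot show whether the numbers pair the samples. A fit that blocked on the replicate number called 0 members forward and 0 backward (smallest limma adjusted p = 0.11), 446 and 2 among those without a 2.5-kb boundary, and 6 farther and 28 less far in WT/WT against WT/slow. Against slow/slow the block gave 104 and 1253, and it left the median and share differences at -7.37 kb, 5.77 kb and 26.6 points with exact sign-flip p = 0.25, 0.5 and 0.25, of which 0.25 is the smallest possible.

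Of 711 values of 42 named genes under the alternatives, 646 kept their direction and side of the threshold, 43 lost a call, 12 gained one and 10 changed sign. The sign changes were in genes that had not passed the test: on the log2 scale Itpr1 (-0.46) and Notch1 (-0.117), and on leaving out 1 sample Nr5a2 (-41.7 to 428 bases per min), Sema5a (-468 to 162), Plxna4 (-61.7 to 1478) and Itpr1 (-660 to 1675). The causes were not tested. Boundaries carry no depth, so what counting error adds to each position is unknown, and 3 samples per time limit every test.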
